A study of Arabidopsis thaliana with 4 samples.

Results

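Wild type Arabidopsis thaliana seedlings grown on medium with 100 mM NaCl (WT_salt) were set against wild type seedlings grown with no added salt (WT_control), to see which miRNAs differed in level with salt. The comparison takes in 2 of the 4 arrays of the series, picked by genotype and treatment in the labels, and all miRNA probes of the array, 2556 spots with 12 repeats of each probe. The other arrays hold seedlings that express a cDNA for ABR17, an abscisic acid-responsive protein of pea, grown with 100 mM NaCl (ABR17_salt) or without added salt (ABR17_control). All seedlings were raised on Murashige and Skoog medium, for 2 weeks by most of the labels, though the growth text also names 7 days. Neither wild type group carries a transgene. Labelling started from 0.5 µg of RNA per sample, which received an adapter at its 3′ ends and was stained with Cy3. The design text speaks of 3 biological replicates, but each group is represented here by 1 array, and the sources used here do not say whether that array holds pooled RNA. No difference below therefore has a replicate check or a p-value. The array carries no tissue markers, so the label "seedling" could not be checked against the data, and in RNA from seedlings fewer cells of a type and less miRNA per cell cannot be told apart.

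Plant miRNAs are cut from hairpin precursors by DICER-LIKE1 and loaded into ARGONAUTE1, where they pair with nearly perfect complementarity to target messages and lead to their cleavage or to lower translation. Many conserved families act on transcription factors, such as the SPL factors of the juvenile-to-adult change (miR156 and miR157), the HAIRY MERISTEM type of GRAS factors (miR171) and the auxin response factors (miR160 and miR167). Others act in mineral nutrition, among them miR398 and miR408 in copper economy, miR395 in sulfate use and miR399 in phosphate uptake. Several of these families have been described as salt responsive in Arabidopsis.

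The mature sequences that the counted probes read are shown first, with those of the nearest related probes, because probes of 1 family differ by few bases. They are written 5′ to 3′ as the deposited array files list them, with the seed, bases 2 to 8, in capitals. The first pair holds the GRAS-targeting miR171a and its relative miR170, which differ by C12U and C14U (the base of the first-named miRNA, the position from its 5′ end, the base of the second).
miR171a: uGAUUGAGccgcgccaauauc
miR170: uGAUUGAGccgugucaauauc
The sulfate-responsive pair of miR395 differs by A17G and shares its seed.
miR395a: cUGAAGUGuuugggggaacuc
miR395b: cUGAAGUGuuuggggggacuc
The SPL-targeting miR156h differs from miR157d by A11U alone and from miR156a by A11G and A14U, and all of them share 1 seed.
miR156h: uGACAGAAgaaagagagcac
miR157d: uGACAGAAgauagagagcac
miR156a: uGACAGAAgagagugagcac
The pair of miR158, a family known from the Brassicaceae, differs by U1C, outside the seed.
miR158a: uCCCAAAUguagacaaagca
miR158b: cCCCAAAUguagacaaagca
miR5021 is shown by itself because its nearest neighbour on the array, miR1886.1, differs from it by 8 letters.
miR5021: uGAGAAGAagaagaagaaaa
The copper-responsive pair of miR398 differs by U21G, the last base.
miR398a: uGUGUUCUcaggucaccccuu
miR398b: uGUGUUCUcaggucaccccug

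WT_control stood apart from the other arrays in brightness. The 1120 blank spots averaged an intensity of 84.8 ± 5.52 (SD) on WT_salt, 231 ± 22.2 on WT_control, 86.5 ± 3.92 on ABR17_salt and 111 ± 13.2 on ABR17_control. Detection of a miRNA required that 50% or more of its repeats exceed the blank mean plus 3 blank SD, which set the threshold at 101 on WT_salt and 298 on WT_control. By that rule 54 miRNAs were detected on WT_salt and 39 on WT_control, of which 35 were detected on both, 19 on WT_salt alone and 4 on WT_control alone. The remaining 155 were detected on neither. Over 4 stripes of the array, blank means ran from 83.4 to 87.0 on WT_salt and from 224 to 236 on WT_control, so the blanks were brighter on WT_control in all 4 stripes. Control probes did not move together: after subtraction of the blank mean, the WT_salt signal over the WT_control signal was 0.972 to 1.42 for the 6 probes of 5S rRNA (median 1.14), but 0.265 to 1.48 for the 11 calibrators named with the suffix 3P (median 0.757, with 9 of the 11 lower on WT_salt). Some other calibration probes differed more. The same ratio was 0.00835 for PUC2PM-20B (a signal of 28.7 on WT_salt and 3433 on WT_control) and 0.157 for PUC2MM. For PUC2PM it was 0.474, inside the range of the 3P calibrators. The part of these array differences in the results below was not tested.

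Levels are log2 intensities after background correction, given as means of the repeats, and made comparable by quantile normalisation of the miRNA probes over the 4 arrays. That step assigns probes of equal rank an equal value, so a difference of exactly 0 is a tie of rank. Where a miRNA was detected on 1 array only, its difference is a bound, in which the other array enters at the higher of the miRNA's own value and the lowest level of a miRNA detected there. Such a bound ("at least") holds on the normalised scale only, and the blank-subtracted signal can point the other way. Together 43 miRNAs had a value: 35 detected on both arrays and 8 bounds. Another 15 detected on 1 array gave none, because their normalised level was no higher on that array than the bound. A miRNA was counted where its difference reached 2-fold (1 on the log2 scale) and its repeat spots on the arrays did not overlap. Errors of levels and differences come from the 12 spots of each array and cover spotting and scanning, not the spread between seedlings. For a bound, the error and the overlap use the miRNA's own spots and levels on both arrays. The error is then not that of the bound itself.

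With salt, 2 miRNAs were counted higher, miR171a and miR395a, and 3 were counted lower, miR156h, miR158a and miR5021. These are 4.65% and 6.98% of the 43 with a value. Among the 35 detected on both arrays, 17 lay above 0, 13 below and 5 at exactly 0, with a range of −2.60 to 1.26. The difference stayed within 1.5-fold for 20 of the 35, and the repeat spots overlapped for 25. At matched positions on the chip, 11 of the 35 were higher at all 12 positions and 9 were lower at all 12. The sign at the rest varied with the position read. Such positions, here and below, compare spots shifted to the normalised level of their probe, not raw intensities. Without scaling, all 35 had the lower blank-subtracted signal on WT_salt. Families described as salt responsive before supplied 3 of the 5 counted miRNAs, with miR171a counted higher and miR156h and miR158a counted lower. That is 3 out of 16 measured and 2 bounds in the list, against 5 of 43 over all miRNAs with a value. Of the 26 probes in that list 22 were detected on WT_salt, WT_control or both, and the 16 detected on both had a median of 0.00, the same as the median over all 35.

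**Figure D1:**
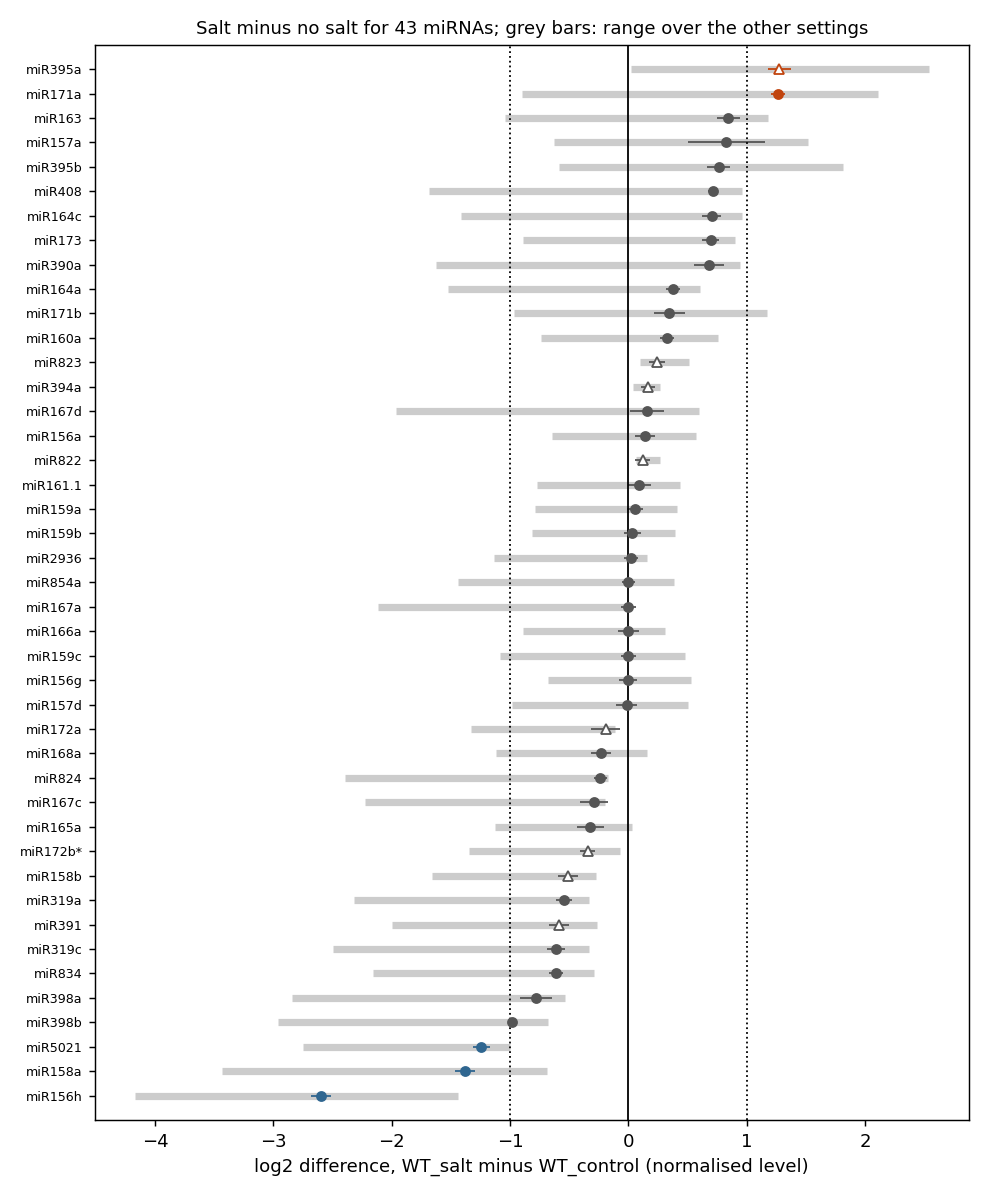
Log2 difference in normalised level, WT_salt minus WT_control, for the 43 miRNAs with a value. Filled circles are miRNAs detected on both arrays, open triangles are bounds, horizontal lines are the spot SE, grey bars run from the lowest to the highest value over the other settings, and dotted lines mark 2-fold. The 2 miRNAs counted higher are in red and the 3 counted lower in blue. The grey bars of miR171a and of most miRNAs not counted cross 0.

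miR171a (AT3G51375), which guides the cleavage of HAIRY MERISTEM messages and so bears on shoot meristems, was the only miRNA detected on both arrays that was counted higher. On the normalised log2 scale it stood at 8.26 on WT_salt and at 7.00 on WT_control, 1.26 ± 0.06 higher (SE over spots, 2.40-fold). Its raw spots lay between 168.1 and 212 on WT_salt, with a median of 186, and between 370 and 454 on WT_control, with a median of 422. The order thus differs between the scales: the raw spots were all dimmer on WT_salt, while miR171a held rank 20 among the probes there and rank 32 on WT_control. After subtraction of the blank mean its signal was 105 on WT_salt and 182 on WT_control. The near relative miR170, 2 substitutions away, exceeded the threshold in 6 of 12 spots on WT_salt and in 1 of 12 on WT_control, and gave no value. miR171b (AT1G11735), whose mature sequence is shifted against that of miR171a, differed by 0.35 ± 0.13, with 1 spot of 280 on WT_salt far above its median of 121. In the alternatives miR171a was below 0 in 4 of 19 and miR171b in 5 of 19. The GRAS-targeting list thus had 1 member counted of the 2 with a value, against 5 of 43 over all miRNAs. Its median was 0.80 over these 2 members, against 0.00 over all 35 miRNAs detected on both arrays.

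miR395a (AT1G26973) directs the cleavage of ATP sulfurylase messages, among others of sulfate assimilation, and is known to accumulate when sulfate is short. It exceeded the threshold in all 12 spots of WT_salt, which lay at 150 to 209 with a median of 183. On WT_control 5 of its 12 spots did so, too few for detection, and the spots lay at 266 to 370 with a median of 290. On the normalised scale it was at least 2.42-fold higher on WT_salt (1.28 ± 0.09 in log2). This size was not kept on other scales: it was at 0.02 with no normalisation, and it was counted in 9 of 18 alternatives. After the blank mean alone was subtracted, its signal was 94.8 on WT_salt and 67.7 on WT_control. Its sister probe miR395b (AT1G26975) had spots of 125 to 180 on WT_salt and 257 to 379 on WT_control, and its difference of 0.76 ± 0.10 was higher at all 12 positions, although the spots overlapped and the value was below 0 in 2 of 19 alternatives. The blank-subtracted signal of miR395b was 66.9 on WT_salt and 81.8 on WT_control, so on that scale the sisters pointed in opposite directions by small amounts. Of the rest of the phosphate and sulfate list, miR399a and miR399b, which target the PHO2 message in phosphate homeostasis, exceeded the threshold in 6 of 12 spots each on WT_salt and in none on WT_control, and gave no value. The list had 4 of 12 probes detected. Its 1 counted member came out of 1 measured and 1 bound, against 5 of 43 over all miRNAs with a value.

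miR156h (AT5G55835), of the family that represses SPL factors and keeps shoots juvenile, showed the largest difference of the 43. Its spots lay between 93.8 and 115 on WT_salt, with a median of 106, and between 710 and 1204 on WT_control, with a median of 939. The ranges were several-fold apart on the raw scale. The normalised difference was −2.60 ± 0.09 (6.04-fold lower), lower at all 12 positions. On WT_salt only 8 of the 12 spots exceeded the detection threshold, so the level there is close to the limit of what the array could read. Its relatives did not share this difference: miR156a (AT2G25095) differed by 0.14 ± 0.08, miR156g (AT2G19425) by 0.00 ± 0.08 and miR157d (AT1G48742) by −0.01 ± 0.09. These carry the same seed as miR156h, and miR157d differs from it at 1 base. The spread of 2.74 within the miR156 family was the widest of the 8 families with more than 1 member detected on both arrays.

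The probe of miR157a (AT1G66783) gave 0.83 ± 0.33, the largest spot SE of the 35. A single WT_control spot at 216, against at least 933 in the other 11, set this value: without it, a step added after the data were seen, the difference was 0.13 ± 0.09. The phase change list also holds miR172, which targets APETALA2-like factors, and 8 of its 9 probes were detected on WT_salt, WT_control or both. miR172a and miR172b*, the opposite strand of the miR172b precursor, were detected on WT_control only, while miR172e was detected on WT_salt only and gave no value. The levels of miR172a and miR172b* were at least 1.14-fold and at least 1.27-fold lower on WT_salt, both with overlapping spots. Of this list only miR156h was counted, out of 5 measured and 2 bounds, against 5 of 43 over all miRNAs with a value. The 5 members detected on both arrays had a median of 0.00.

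miR158a (AT3G10745) was also counted lower. It had 6 of its 12 spots above the threshold on WT_salt, the minimum for detection, with spots of 91.8 to 117 and a median of 101. On WT_control its spots lay between 469 and 751, with a median of 603. The normalised difference was −1.38 ± 0.09 (2.61-fold lower), lower at all 12 positions. miR158b (AT1G55591), which differs at the first base only, was detected on WT_control alone and was at least 1.42-fold lower on WT_salt, with overlapping spots (−0.51 ± 0.08). miR158a was below 0 in all 19 alternatives that gave a value. So was miR158b in 17, but as a bound from WT_control alone its sign was set by the rule.

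miR5021 (AT2G08235) was bright enough on both arrays to be detected in all 12 spots. They lay between 182 and 251 on WT_salt, with a median of 209, and between 994 and 1437 on WT_control, with a median of 1216. Its difference was −1.24 ± 0.07 (2.37-fold lower), lower at all 12 positions. Of the 3 miRNAs counted lower it is the one whose WT_salt level was clear of the detection threshold.

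**Figure D2:**
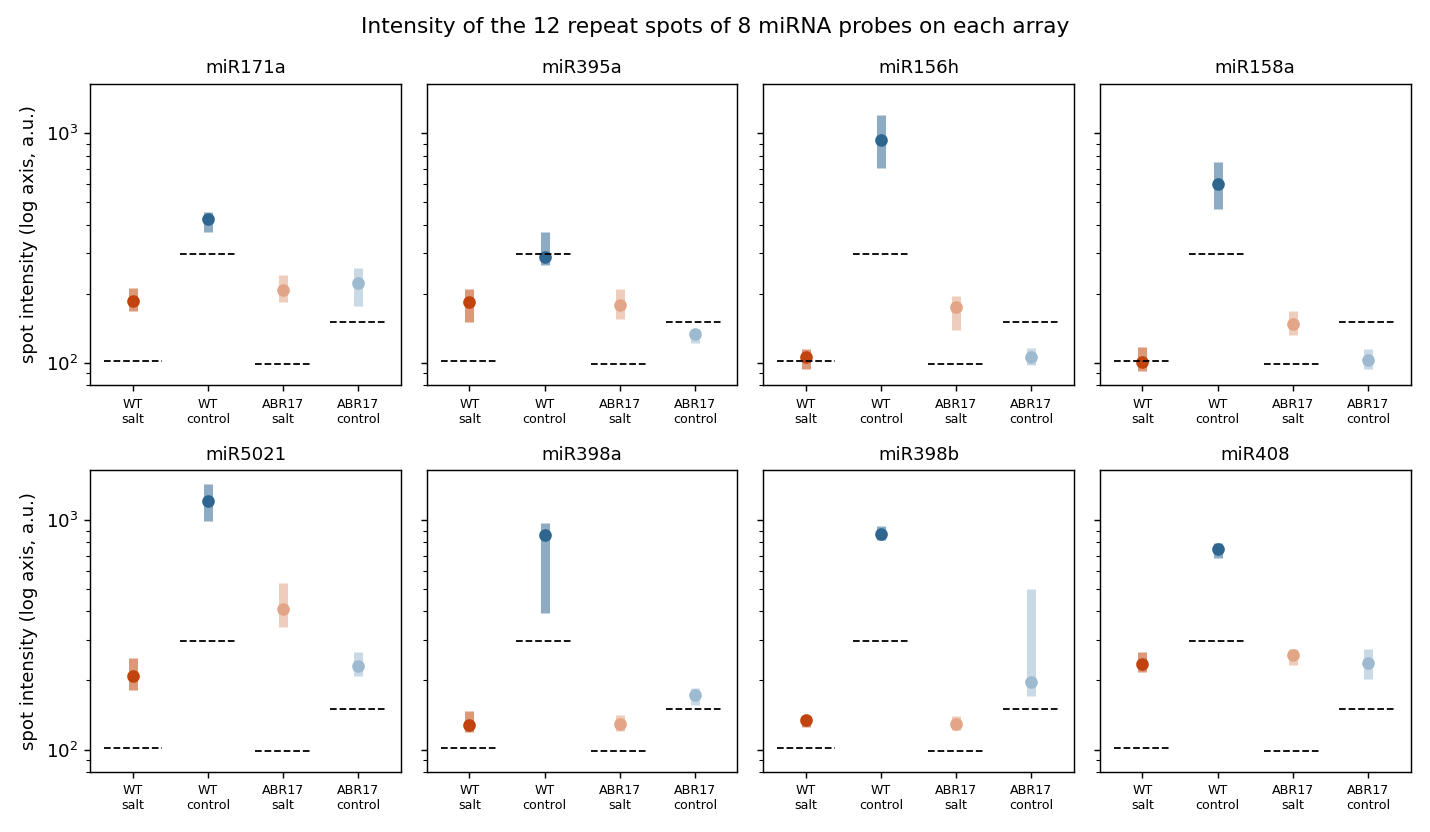
Intensity on a log axis of the 12 repeat spots of 8 miRNA probes, the 5 counted ones and miR398a, miR398b and miR408, on WT_salt, WT_control, ABR17_salt and ABR17_control; bars run from the lowest to the highest spot, dots are medians and dashed lines are the detection thresholds of 101, 298, 98.3 and 151. The spots of miR156h and miR158a on WT_salt straddle the threshold, and the WT_control spots of each of the 8 probes lie above its WT_salt spots.

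All 3 miRNAs counted lower are 20 nt long, and both counted higher are 21 nt long. The array has 14 probes for sequences of 20 nt, of which 9 had a value, against 30 values at 21 nt. Counted were thus 3 of 9 at 20 nt and 2 of 30 at 21 nt, against 5 of 43 over all miRNAs with a value. The 6 sequences of 20 nt detected on both arrays covered the full span from −2.60 to 0.14, with miR156a, miR156g and miR157d near 0. The single miRNA of 24 nt with a value was miR163 (AT1G66725), which targets methyltransferases of secondary metabolism. It differed by 0.85 ± 0.09, with overlapping spots, and was below 0 in 6 of 19 alternatives. Over the 35, length and the normalised difference correlated at r = 0.46 (rho = 0.45), a description across miRNAs that share both arrays and the same normalisation. Length and the blank-subtracted log2 ratio correlated at r = 0.21 (rho = 0.03) only.

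Copper-responsive miRNAs differed in sign on the normalised scale. Both miR398 probes, which read miRNAs that target the copper/zinc superoxide dismutases, were lower on WT_salt. miR398b (AT5G14545) had spots of 125 to 140 on WT_salt, with a median of 135, and of 823 to 940 on WT_control, with a median of 869. Its difference of −0.98 ± 0.03 (1.97-fold lower) had spots that did not overlap and was just short of the 2-fold rule. miR398a (AT2G03445) had spots of 120 to 147 on WT_salt and of 392 to 970 on WT_control, and differed by −0.78 ± 0.14. The lowest WT_control spot stood alone below the other 11, which were at least 797; without it, again a step added after the data were seen, the difference was −1.00014 ± 0.04 and the spots no longer overlapped, so that miR398a would be counted lower. miR408 (AT2G47015), which targets plantacyanin and laccases, ran the other way on the normalised scale, by 0.71 ± 0.04, higher at all 12 positions and with spots that did not overlap. Its spots lay between 217 and 267 on WT_salt and between 686 and 797 on WT_control. The miR398 probes kept their sign in all 19 alternatives that gave a value, whereas miR408 was below 0 in 8 of 19, no normalisation among them. The copper list had 3 of 6 probes detected, none counted with all spots in use and a median of −0.78.

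Among auxin-related miRNAs, of which 5 of 6 probes were detected, none was counted. miR160a (AT2G39175), which targets repressive auxin response factors, differed by 0.33 ± 0.06, higher at all 12 positions and with overlapping spots, and was below 0 in 3 of 19 alternatives. The miR167 probes, which read miRNAs that target activating auxin response factors, were spread around 0 at −0.29 ± 0.12 for miR167c (AT3G04765), 0.00 ± 0.06 for miR167a (AT3G22886) and 0.16 ± 0.14 for miR167d (AT1G31173). The normalised and raw scales differ here, since the raw spots of miR167a lay between 201 and 261 on WT_salt and between 776 and 1040 on WT_control, and still gave a tie at rank 17. miR390a (AT2G38325), which starts the tasiRNAs that act on further auxin response factors, differed by 0.68 ± 0.13. The list median was 0.16 over 5 members.

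The tasiRNA and PPR targeting list had 3 members on both arrays, all above 0. Besides miR390a these were miR173 (AT3G23125), the trigger of the TAS1 and TAS2 families of trans-acting siRNAs, at 0.69 ± 0.08, and miR161.1 (AT1G48267), which targets pentatricopeptide repeat genes, at 0.09 ± 0.10. The spots of miR173 lay between 393.4 and 580 on WT_salt and between 791 and 1037 on WT_control, and its normalised spots did not overlap. In the alternatives miR173 was below 0 in 4 of 19, miR390a in 9 of 19 and miR161.1 in 3 of 19. None was counted, and the list median was 0.68.

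Leaf and meristem miRNAs were divided by family. The NAC-targeting miR164c (AT5G27807) and miR164a (AT2G47585), which shape organ boundaries and differ by their last base (A21G from miR164a to miR164c), differed by 0.70 ± 0.08 and 0.38 ± 0.06, both higher at all 12 positions, although each was below 0 in 7 of 19 alternatives. The TCP-targeting miR319c (AT2G40805) and miR319a (AT4G23713), which act on leaf growth, differed by −0.61 ± 0.07 and −0.55 ± 0.07, both lower at all 12 positions and below 0 in 19 of 19 alternatives. The polarity miRNAs miR165a (AT1G01183) and miR166a (AT2G46685), which target class III HD-ZIP factors and differ by C17U, gave −0.32 ± 0.11 and 0.00 ± 0.09. miR166a held rank 2 on both arrays, so its normalised value could not differ. miR394a (AT1G20375), which targets an F-box gene of the meristem, was detected on WT_salt alone and was at least 1.12-fold higher there on the normalised scale, with overlapping spots. Its blank-subtracted signal was lower on WT_salt, at 29.6 against 60.9 on WT_control. Of 9 probes in the list 7 were detected and none was counted, and the median was −0.16 over the 6 detected on both arrays.

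The MYB-targeting miR159 probes lay close to 0. miR159a (AT1G73687), miR159b (AT1G18075) and miR159c (AT2G46255) gave 0.06 ± 0.07, 0.03 ± 0.07 and 0.00 ± 0.06. With the miR319 probes, which belong to the same list, 5 of 7 probes were detected, none was counted and the median was 0.00. For the miRNAs that act on the small RNA machinery itself, miR168a (AT4G19395, ARGONAUTE1) differed by −0.23 ± 0.08, lower at all 12 positions. miR162a (DICER-LIKE1) and miR403 (ARGONAUTE2) were detected on WT_salt, in 12 and 8 of 12 spots, and not on WT_control, in 5 and 2 of 12 spots. They gave no value.

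The NF-YA-targeting miR169 probes are an example of how the thresholds acted on dim miRNAs. miR169a, miR169b, miR169d and miR169h were detected on WT_salt in 7 to 9 of 12 spots, at means of 102 to 104, and in none of the WT_control spots, at means of 243 to 253. After subtraction of the blank mean they read 16.96 to 18.9 on WT_salt and 12.2 to 21.7 on WT_control, ranges that overlap. More widely, of the 19 miRNAs detected on WT_salt alone, 18 had a mean above the blank mean on WT_control, and only 6 had the higher blank-subtracted signal on WT_salt. A detection on WT_salt alone is thus not by itself a higher level there.

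Of the conserved families 40 of 55 probes were detected on WT_salt, WT_control or both, while 18 of the detected probes belonged to other families. The other families had a median of 0.00 over 9 members detected on both arrays, against 0.02 over 26 for the conserved ones. Counted were 2 of the other families, both lower, out of 9 measured and 4 bounds, and 3 of the conserved ones out of 26 measured and 4 bounds. Over all miRNAs with a value it was 5 of 43. miR834 (AT5G08210) differed by −0.61 ± 0.06, with spots of 94.0 to 122 on WT_salt and 411 to 548 on WT_control that did not overlap after normalisation either. miR824 (AT4G24415), a regulator of the MADS-box factor AGAMOUS-LIKE16, differed by −0.24 ± 0.05, lower at all 12 positions. miR391 (AT5G60408), a relative of miR390, was detected on WT_control alone and was at least 1.5-fold lower on WT_salt, with spots that did not overlap. miR823 (AT3G13724), which targets the CHROMOMETHYLASE3 message, and miR822 (AT5G03552) were detected on WT_salt alone. On the normalised scale they were at least 1.18-fold and at least 1.09-fold higher there, both with overlapping spots. Their blank-subtracted signals were lower on WT_salt, at 32.4 against 51.1 on WT_control for miR823 and 29.1 against 38.1 for miR822.

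The brightest probe of both arrays was that of miR854a (AT5G04995), with spots of 2488 to 3529 on WT_salt and of 4028 to 5466 on WT_control. As rank 1 on both, its normalised difference was fixed at 0. Its log2 ratio of blank-subtracted signals was −0.61. In the authors' deposited table it read 2753 for WT_salt and 7449 for WT_control, a log2 ratio of −1.44.

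Without any scaling between arrays, the miRNAs detected on both differed in 1 direction. After subtraction of the blank mean, all 35 miRNAs detected on both arrays had the lower signal on WT_salt, with log2 ratios of −5.17 to −0.29 and a median of −1.01. Detection asked for more signal on WT_control than on WT_salt, and 6 of the 19 miRNAs detected on WT_salt alone, miR395a among them, had the higher signal there. With the normexp correction and no normalisation, 0 of 40 miRNAs with a value (0%) were counted higher and 17 (42.5%) lower, the median over the 35 was −0.92, and miR171a was at −0.69. The size of the lower signal varied with brightness, taken as the mean log2 signal of both arrays. Among the 11 brightest miRNAs, with WT_control signals of 890 to 4396, the ratios kept to a narrow range of −0.96 to −0.42 around a median of −0.60. Among the 12 of middle brightness the median was −2.19, and among the 12 dimmest it was −1.65, with a range of −5.17 to −0.29. Over the 35, mean signal and ratio correlated at r = 0.56 (rho = 0.58), a description across miRNAs that share the same arrays.

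The blank-subtracted signal was over 8-fold lower on WT_salt for 7 of the 35. These were miR156h, miR158a, miR398b, miR398a, miR319a, miR834 and, at the margin, miR5021 with a log2 ratio of −3.0. All 7 had a normalised difference below 0. The normalised differences had an SD of 1.10 among the dimmest 12, 0.69 among the middle 12 and 0.17 among the brightest 11. Of the counted miRNAs detected on both arrays, miR171a, miR156h and miR158a were among the dimmest 12 and miR5021 among the middle 12. The brightest 11 ran from −0.32 (miR165a) to 0.33 (miR160a).

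**Figure D3:**
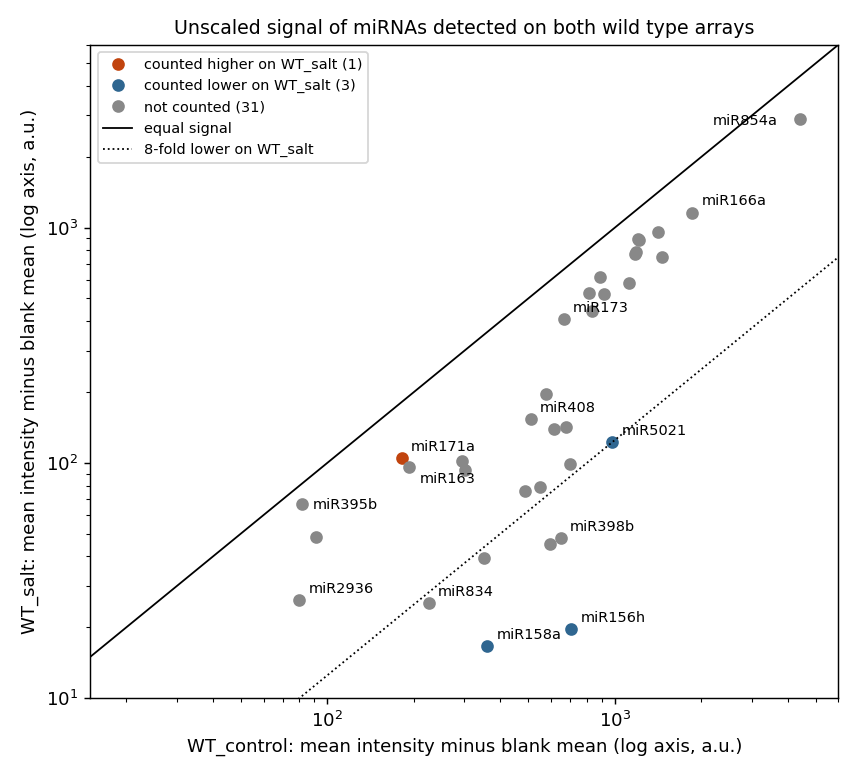
Mean intensity minus the blank mean on WT_salt (vertical, log axis) and on WT_control (horizontal, log axis) for the 35 miRNAs detected on both arrays. All points lie below the solid line of equal signal; the bright ones run parallel to it, while miR156h and miR158a lie farthest below the dotted line of an 8-fold lower signal.

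The authors' deposited processed values gave 4 miRNAs counted higher and 12 lower among 43, or 9.3% and 27.9%. Those values hold no repeat spots, so this count rests on the 2-fold size alone, a looser rule than the one used above. In the authors' deposited table, 16 of the 35 miRNAs detected on both arrays were lower on WT_salt and 19 higher, with a median log2 ratio of 0.09. There miR171a was at 1.13, miR395a at 2.78, miR395b at 1.81, miR163 at 1.02, miR156h at −3.28, miR158a at −2.50, miR5021 at −1.29, miR398a at −2.01, miR398b at −1.92 and miR408 at 0.04. The counted miRNAs thus had the same sign in the authors' deposited table as here. The sources used here do not state how that table was scaled. The count depended on the scaling more than on the choice of spots: with 6 of the 12 spots at a time it was 3 higher and 4 lower for the first 6 and 2 higher and 3 lower for the others, while scaling on the 5S rRNA probes gave 0 higher and 24 lower.

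**Figure D4:**
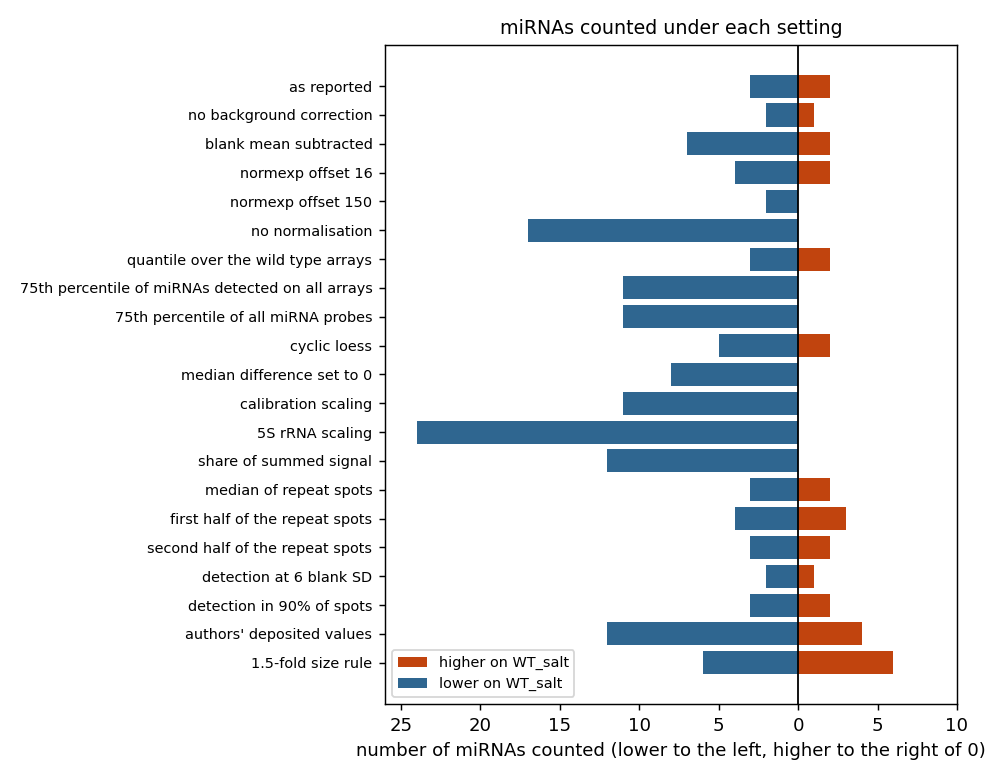
Number of miRNAs counted higher on WT_salt (red, to the right of 0) and lower (blue, to the left) under the reported processing and each of the 20 alternatives. The reported 2 higher and 3 lower became 0 higher and 8 to 24 lower under each setting that scales or leaves the arrays by a single factor. They became 4 higher and 12 lower in the authors' deposited values, counted by size alone because these hold no repeat spots.

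The ABR17 arrays place the counted wild type values in context. miR156h averaged an intensity of 104 ± 6.61 on WT_salt, 937 ± 148 on WT_control (SD of 12 spots), 171.4 ± 20.3 on ABR17_salt and 105 ± 5.66 on ABR17_control, so the raw intensity was high on WT_control alone. The same order held for miR158a, at 102 on WT_salt, 591 on WT_control, 149 on ABR17_salt and 103 on ABR17_control, and for miR5021, at 207, 1212, 415 and 236 on the arrays in that order. Calibration probes followed the same order in part: PUC2PM-20B read 114 on WT_salt, 3664 on WT_control, 484 on ABR17_salt and 115 on ABR17_control, and PUC2MM 1844, 11421, 4019 and 1176 in that order. Their part in the miRNA differences was not tested. Both miR398 probes were also brightest on WT_control. The order of miR398b was another one, at 133 on WT_salt, 878 on WT_control, 129 on ABR17_salt and 222 on ABR17_control. Blank spots were brightest on WT_control too, at 231 against 84.8 on WT_salt, 86.5 on ABR17_salt and 111 on ABR17_control. The highest raw intensity on WT_control is therefore not particular to these probes. For miR171a the intensities were 189 on WT_salt, 413 on WT_control, 208 on ABR17_salt and 219 on ABR17_control, and for miR395a 180, 299, 180 and 133 in the same order. On the normalised scale miR171a differed by 0.09 between ABR17_salt and ABR17_control, while miR398a and miR398b differed by −0.68 and −0.90 there, the same sign as in the wild type. Of the 30 miRNAs detected on all 4 arrays, 11 had opposite signs in the genotypes, among them miR5021 (0.75 in ABR17), miR824 (1.05) and miR319c (0.71). Outside the 30, miR156h, miR158a and miR395a exceeded the threshold in 12 of 12 spots on ABR17_salt and in 0 of 12 on ABR17_control. The ABR17_control means of miR156h and miR158a lay below the blank mean of 111 on that array. Each of the 5 counted values rests on the single WT_control array.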

How the data were processed

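miRNA levels were measured on 4 single-colour arrays, 1 per group, of which WT_salt and WT_control are compared here. Per the file headers, the deposited array files give each spot's mean density, a Cy3 intensity on a linear scale with no background subtracted, and each probe's target sequence. The authors also deposited a table of processed intensities, 1 per miRNA and array, whose background correction and scaling the sources used here do not name. The labelling chemistry is given per the labels' protocols.

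Each array lists 3968 spots. Intensities were corrected by normexp (limma 3.58.1, R 4.3.3, offset 50, all spots of an array), turned into log2 values, reduced to the mean of 12 repeats and quantile normalised. The offset shrinks the differences of dim miRNAs. Figures and tables were made with Python 3.11.15. The counting procedure was tested on simulated spots. With 1 array per group no test between groups was made, and precision is limited by the number of arrays.

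miRNAs were named where counted, among the 10 largest differences of each sign, among the 5 brightest, where detected on 1 array only, or as detected members of 13 lists set by family number. The lists and the choice of comparison were made with earlier results of these data known, and the lists share members. Locus tags come from RefSeq's table for TAIR10.1 by miRNA name and matched 202 probes. Without a genome of the array's build no coordinates are given. The alternatives cover background correction, offset, scaling, repeat spots, detection, size rule and the authors' deposited values. The last hold no repeat spots, so spot overlap was not part of their count.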

Additional observations from a re-analysis of the deposited data

Results flagged for a closer look

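Of the 30 miRNAs detected on all 4 arrays, 11 had normalised log2 differences between salt and no salt of opposite sign in the wild type and in the ABR17 plants. The pairs of arrays share no array, and with 1 array per group the difference between the genotypes was not tested.

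Lower with salt in the wild type and higher in the ABR17 plants were miR5021 (−1.24 in the wild type, 0.75 in ABR17), miR319c (−0.61 and 0.71) and miR824 (−0.24 and 1.05). Higher in the wild type and lower in the ABR17 plants were miR163 (0.85 in the wild type, −0.43 in ABR17), miR157a (0.83 and −0.23), miR164c (0.70 and −0.52), miR164a (0.38 and −0.66), miR171b (0.35 and −0.55), miR167d (0.16 and −0.35), miR159a (0.0569 and −0.0893) and miR159b (0.0324 and −0.20). The wild type value of miR157a rests on 1 dim WT_control spot, and the wild type values of miR159a and miR159b were smaller than their spot SE of 0.07. Single far spots also enter the wild type values of miR171b and miR167d. These were 280 on WT_salt against a median of 121 for miR171b, and 391 on WT_control against a median of 876 for miR167d.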

How the results depend on the processing

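miR156h and miR5021 were counted lower in all 19 alternatives that gave a value, and miR158a in 16 of 19, with the same sign in the rest. miR395a was counted in 9 of the 18 alternatives that gave it a value. Its sign could not turn while it stayed a bound, since a bound is given only where the detecting array is the brighter. The sign of miR171a turned with no normalisation (−0.69), with scaling to the 75th percentile of all miRNA probes (−0.16), with calibration scaling (−0.13) and with 5S rRNA scaling (−0.90). Of 38 miRNAs with a difference other than 0, 20 turned sign in at least 1 of the 20 alternatives and 18 did not. The 18 include all 8 bounds, whose sign is set by the rule while they stay bounds. Of 8 list medians other than 0, 4 turned. The cause of these turns was not tested. Scaling moved the median of the 35 miRNAs detected on both arrays to −0.92 with no normalisation, −1.13 with 5S rRNA scaling, −0.35 with calibration scaling, −0.22 and −0.39 with the 75th percentile (miRNAs detected on all arrays, all probes) and −0.13 with cyclic loess.

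As counts higher and lower, against 2 and 3 as reported, no background correction gave 1 and 2, subtraction of the blank mean 2 and 7, normexp offset 150 gave 0 and 2, no normalisation 0 and 17, both 75th percentile scalings 0 and 11, cyclic loess 2 and 5, the median difference set to 0 gave 0 and 8, calibration scaling 0 and 11, 5S rRNA scaling 0 and 24, the share of summed signal 0 and 12, detection at 6 blank SD 1 and 2, the authors' deposited values 4 and 12 and a 1.5-fold size rule 6 and 6.

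Members counted per list, against the reported number, were as follows. For the deposited values these counts, like the total above, rest on the size rule alone. The salt list (3) gave 1 with offset 150, 8 with no normalisation, 11 with 5S rRNA scaling and 6 with both 75th percentiles, calibration scaling, the share and the deposited values. The copper list (0) gave 1 with blank subtraction, offset 16, cyclic loess and the first 6 spots, 3 with no normalisation and 5S rRNA scaling, and 2 in the other scalings, the deposited values and the 1.5-fold rule. The phosphate and sulfate list (1) gave 2 with cyclic loess and the deposited values and 0 with no background correction, offset 150, detection at 6 blank SD and each single-factor scaling or none. The auxin list (0) gave 1 with the 1.5-fold rule, 2 with both 75th percentiles, calibration scaling and the share, 3 with no normalisation and 4 with 5S rRNA scaling. The phase change list (1) gave 2 with 5S rRNA scaling, the first 6 spots and the deposited values. The leaf and meristem list (0) gave 1 with blank subtraction, cyclic loess and the 1.5-fold rule, 4 with no normalisation, 5 with 5S rRNA scaling and 2 in the other scalings and the deposited values. The MYB list (0) gave 1 with blank subtraction and cyclic loess, 3 with 5S rRNA scaling and 2 in the other scalings, with none and in the deposited values. The small RNA feedback list (0) gave 1 with 5S rRNA scaling, and the tasiRNA and PPR list (0) gave 1 there and 2 with the 1.5-fold rule. The GRAS list (1) gave 0 with offset 150, cyclic loess and each single-factor scaling or none. The conserved list (3) gave 1 with offset 150, 5 with blank subtraction, cyclic loess, the first 6 spots and the median difference set to 0, 7 with both 75th percentiles, calibration scaling, the share and the 1.5-fold rule, 9 in the deposited values, 11 with no normalisation and 16 with 5S rRNA scaling. The other families (2) gave 1 with no background correction, offset 150 and detection at 6 blank SD, 4 with blank subtraction, both 75th percentiles and calibration scaling, 5 with the share and the 1.5-fold rule, 6 with no normalisation, 7 in the deposited values and 8 with 5S rRNA scaling. NF-Y had none.

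All alternatives use the same WT_control array, on which 39 miRNAs were detected. No paired analysis was possible because each group has 1 array.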

Other observations

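Single repeat spots far from the rest were found for several detected miRNAs. On WT_salt, miR390a had a spot of 593 against a median of 258, miR171b a spot of 280 against a median of 121 and miR172a a spot of 201 against a median of 100. On WT_control, miR167d had a spot of 391 against a median of 876, and miR3440b-5p a spot of 744 against a median of 273.

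The blank-subtracted log2 ratio of WT_salt to WT_control correlated with GC percent of the miRNA at r = 0.22 and rho = 0.10 over the 35 miRNAs detected on both arrays, and with length at r = 0.21 and rho = 0.03. These are descriptions across miRNAs that share both arrays.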
